A study of Rattus norvegicus with 10 samples.

Results

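Oligodendrocyte lineage and myelin genes were examined in the medial prefrontal cortex (mPFC) of rats with a history of cocaine self-administration. They are 29 genes of the 22081 in the deposited tables, taken by symbol from a list that names markers of the lineage from precursor to myelinating cell. The list holds 19 genes of mature oligodendrocytes (13 for proteins of the sheath, 4 for enzymes of myelin lipids and of acetate supply, 2 for a receptor and a protease), 5 lineage transcription factors, 2 precursor genes and 3 genes of differentiating cells. All 29 were found, and all 29 passed the filter on low counts among 14135 genes tested.

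The 10 animals were outbred male Sprague-Dawley rats, 11 weeks old when operant training began, and no rat without cocaine was sequenced. Each pressed a lever for intravenous cocaine at 0.75 mg/kg per infusion paired with a light and pump cue, spent 10 days abstinent, and gave tissue on experimental day 27. On a cue test during training, 5 rats ranked above the median of lever presses (high cue, HC) and 5 below it (low cue, LC), and each library came from the mPFC of 1 rat. The paper reports a higher total cocaine intake in HC than in LC rats, so phenotype and intake cannot be told apart in HC against LC. The names of the deposited tables, but not the sample labels, mark 6 of these rats as Cue (HC 9, 10 and 11, LC 12, 13 and 14) and 4 as NoCue (HC 15 and 16, LC 2 and 4). In the study's methods, 3 HC and 3 LC rats had the cue test repeated on day 27, so the mark was taken as that test, with the limit that the labels do not say so.

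Oligodendrocytes wrap axons of the brain with myelin, a compacted membrane rich in cholesterol and galactolipids that speeds conduction and supplies the axon with metabolites. They arise throughout life from precursor cells that carry the receptor PDGFRA and the proteoglycan NG2. The precursors leave the cell cycle, pass through a short premyelinating stage and then switch on sheath proteins under the factors SOX10 and MYRF. The frontal cortex myelinates late, and its grey matter holds fewer myelinated axons than the white matter below it.

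Exon reads ranged from 11296517 to 26664008 per rat, and the 29 genes took 0.171% to 0.293% of them in 9 rats and 0.124% in LC 2. LC 2 stood apart before any gene of the lineage was considered. The mitochondrial genome gave 28.4% of the exon reads of LC 2, and 7.65% to 12.0% of those of the other rats. Of its exon reads outside the mitochondrial genome the 29 genes took 0.173%, and 0.185% to 0.321% in the others. Its library scaling factor was 0.772. Over the genes tested, it was the highest of the 10 rats at 33.2% and the lowest at 35.5%. LC 4 stood apart in another way, with genes of striatal projection neurons summing to 704 TPM against 228 to 327 TPM in the other rats. TPM are exon reads per length, scaled to a fixed total in each library. Both rats are LC and NoCue, so values for that cell of the design rest on 2 libraries that differ from the rest.

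Sequence before the start site is shown for 4 members. Of these, Hapln2 had the highest log2 fold change of all members by cue mark, and Olig2 and Cspg4 passed an unadjusted test there. Opalin, a sheath gene, had a log2 fold change of -0.05 by mark, and no comparison turns on it. The windows of Hapln2 and Opalin hold 2 motif matches each, and no member's window holds more, so the 4 do not stand for the list. Each line gives the 120 bases before the annotated start, on the strand of the gene, from RefSeq on the build GRCr8. Capitals mark the SOX-type letters ACAAAG or ACAATG and the E-box letters CAGCTG or CAGATG on either strand. The Hapln2 window is chr2:175794439-175794558 on the minus strand, that of Opalin is chr1:249858191-249858310 on the minus strand, that of Olig2 is chr11:43961465-43961584 on the plus strand and that of Cspg4 is chr8:66160822-66160941 on the plus strand.
Hapln2: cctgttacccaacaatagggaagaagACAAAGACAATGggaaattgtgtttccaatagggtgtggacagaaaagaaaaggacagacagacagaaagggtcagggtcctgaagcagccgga
Opalin: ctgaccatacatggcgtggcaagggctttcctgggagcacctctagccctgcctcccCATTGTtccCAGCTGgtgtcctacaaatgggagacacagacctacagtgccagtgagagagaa
Olig2: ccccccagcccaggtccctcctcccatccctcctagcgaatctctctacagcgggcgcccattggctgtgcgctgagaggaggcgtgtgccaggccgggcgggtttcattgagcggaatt
Cspg4: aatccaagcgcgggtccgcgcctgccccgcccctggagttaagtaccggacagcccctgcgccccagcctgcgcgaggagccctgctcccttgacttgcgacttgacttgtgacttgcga

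The Hapln2 window holds ACAAAG and ACAATG back to back, from 94 to 83 bases before the start. The Opalin window holds CATTGT, the reverse complement of ACAATG, and a CAGCTG 3 bases further on. Neither motif is in the windows of Olig2 and Cspg4. Over the full 250 bases before the start, 23 of the 29 members matched the RefSeq table, with 24 start sites because Mbp has 2. A SOX-type motif was found before 10 of these 24 starts, against 25.3% of 33469 rat promoters of that length. An E-box was found before 8 of the 24, against 24.3%. Such matches are letters in a window and were not measured as binding.

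The level of the genes spanned from myelin basic protein down to genes near 3 TPM. Mbp, which encodes the protein that holds the inner faces of the sheath together, averaged 568 TPM and was the gene of rank 160 of all by TPM (chromosome 18, 79326738 to 79437310, plus strand, on Rnor_6.0). It alone gave 41.3% to 47.9% of the members' exon reads in each rat. Cnp, a phosphodiesterase of the cytoplasmic channels of the sheath, averaged 142 TPM. Cldn11, which forms the tight junctions of myelin, averaged 84.1 TPM. Olig1 was the highest transcription factor at 75.4 TPM. Bcas1, a marker of premyelinating cells, averaged 58.5 TPM.

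Below these, Mobp, Mal, Mag, Pllp, Mog and Tspan2 of the sheath averaged 28.1 to 53.6 TPM, and Opalin, Ermn and Hapln2 averaged 16.1 to 22.2 TPM. The precursor gene Pdgfra averaged 28.4 TPM and Cspg4, the core protein of NG2, averaged 9.17 TPM. Gpr17 averaged 33.4 TPM and the receptor Gpr37 30.3 TPM. The factors Sox10, Olig2, Myrf and Nkx6-2 averaged 26.001, 20.8, 18.5 and 6.67 TPM. Among the enzymes of sheath galactolipids, Ugt8 averaged 13.6 TPM, Fa2h 10.2 TPM and Gal3st1 4.39 TPM. Aspa, which frees acetate from N-acetylaspartate, averaged 6.58 TPM. The lowest were Adamts4 at 4.08 TPM, Tmem63a at 2.82 TPM and Enpp6 at 2.79 TPM, the last with a mean of only 51.2 exon reads per rat.

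**Figure D1:**
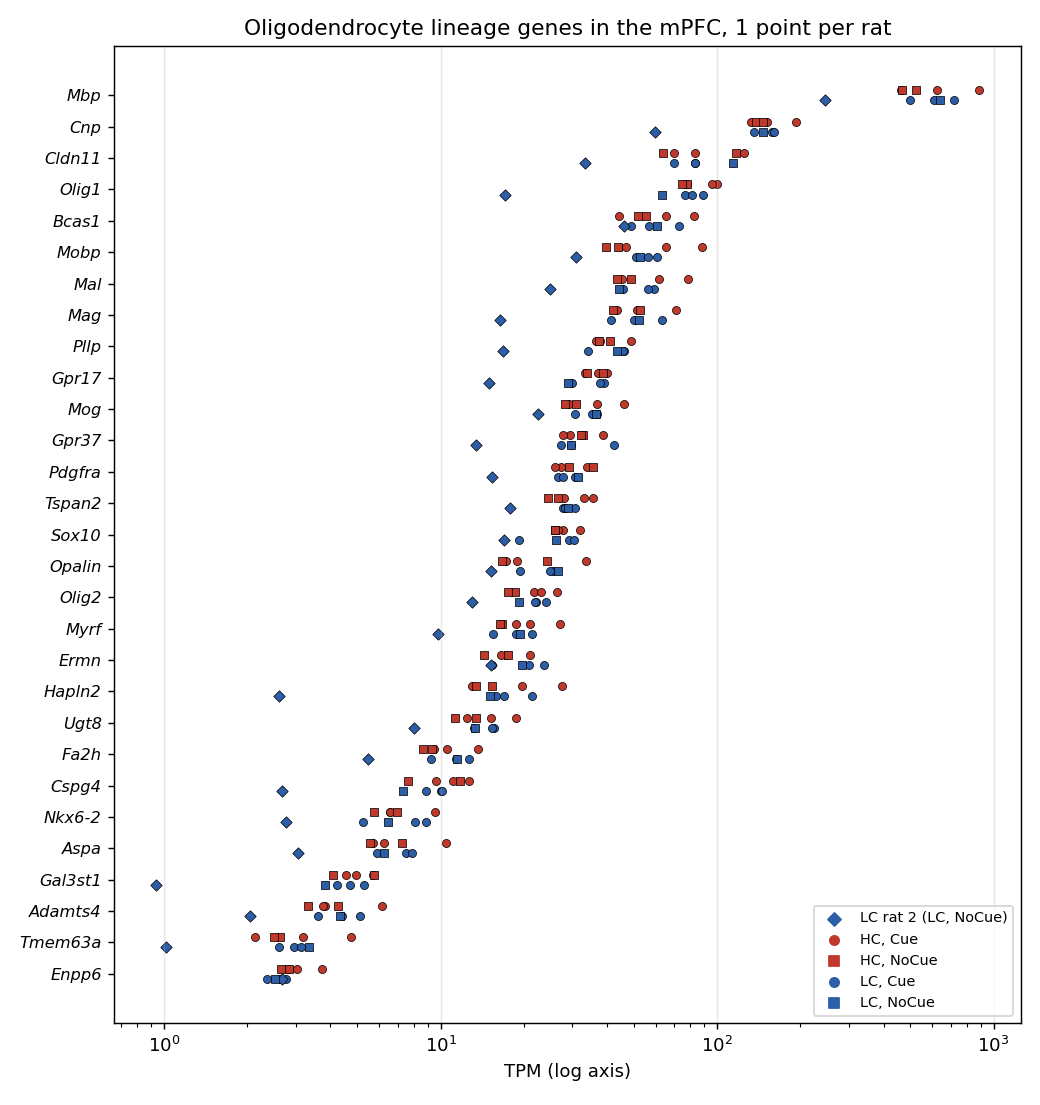
TPM on a log axis for each of the 29 genes, ordered by mean, with 1 point per rat; red is HC, blue is LC, circles are Cue rats, squares are NoCue rats and the diamond is LC rat 2. Mbp at a mean of 568 TPM stands above the rest, red and blue points overlap in every row, and the diamond, from the rat with the highest mitochondrial share in the TPM total, lies left of the other rats in most rows.

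Some of these reads could not be given to 1 gene alone. Gpr17, a receptor of differentiating cells, lies wholly inside Lims2 on the other strand, and 0% of its exon reads were counted as unique. Sox10 lies inside an unnamed gene on the other strand, and 3.25% of its exon reads were unique. Aspa overlaps Trpv3 and Spata22, with 60.5% unique. Each of the other 26 had at least 98.4%. No source used here says whether strand was used in the counting, and the values of Gpr17, Sox10 and Aspa are uncertain in that respect.

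For HC against LC, the first question of the design, the members of the lineage lay on both sides of 0 and none passed the test after adjustment. Fold changes are log2 ratios, HC over LC, fitted by edgeR on exon reads. CPM are exon reads relative to the total of the library after scaling. Of the 29 genes, 14 had a log2 fold change above 0 and 15 below 0. Their median log2 fold change was -0.0014, against 0.0047 over all genes tested. At an adjusted p under 0.05 the count was 0 of 29, against 0% of all genes, and it was also 0 of 29 by DESeq2 and by limma-voom. At an unadjusted p under 0.05 edgeR gave 1 of 29, lower in HC. That compares with 1.74% of all genes, and 1.02% in that direction. No member had HC and LC rats that did not overlap, against 0.439% of all genes. In whole tissue, fewer cells of a type and less RNA per cell cannot be told apart.

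Ermn encodes ermin, a cytoskeletal protein of the late myelinating cell (chromosome 3, 44068057 to 44086022, minus strand). It stood at 17.3, 14.5, 13.3, 12.1 and 15.7 CPM in HC rats 9, 10, 11, 15 and 16. It stood at 22.5, 18.0, 13.7, 20.4 and 18.0 CPM in LC rats 2, 4, 12, 13 and 14. Ermn was highest in LC 2 and lowest in HC 15, and LC 12 fell among the HC rats. The means were 14.6 ± 2.04 CPM in HC and 18.5 ± 3.28 CPM in LC (SD, n = 5 each). The log2 fold change of Ermn was -0.35 ± 0.14 (SE), with an unadjusted p of 0.028 and an adjusted p of 0.885. Its exact permutation p, two-sided over all regroupings of the rats, was 0.063. The unadjusted p of Ermn passed 0.05 no longer without HC 11, HC 15 or LC 13, within the Cue rats, within the NoCue rats, without LC 2 and 4 together, or with library size alone as the scaling. Its log2 fold change over all 24 alternatives ran from -0.57 to -0.22.

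Mbp stood at 1330.4, 961, 679, 718 and 857 CPM in HC rats 9, 10, 11, 15 and 16. In LC rats 2, 4, 12, 13 and 14 it stood at 663, 1070.15, 810.3, 1126 and 962 CPM. The most and the least Mbp were thus in 1 rat of each phenotype, HC 9 and LC 2, and the groups overlapped over most of their range. The means were 909 ± 261 CPM in HC and 926 ± 190.3 CPM in LC (SD, n = 5 each). For Mbp the log2 fold change was -0.03 ± 0.19 (SE), with an adjusted p of 0.974 and an exact permutation p of 0.841.

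Mog encodes a glycoprotein on the outermost face of the sheath (chromosome 20, 2004052 to 2014286, plus strand). Its level was 32.2, 26.5, 20.03, 20.2 and 23.7 CPM in HC rats 9, 10, 11, 15 and 16. It was 28.5, 28.6, 23.4, 26.9 and 25.98 CPM in LC rats 2, 4, 12, 13 and 14. HC rats took both the highest and the lowest places, and all LC rats lay between them. The log2 fold change of Mog was -0.12 ± 0.13 (SE), with an adjusted p of 0.885 and an exact permutation p of 0.325.

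Among lineage factors, Sox10, which activates myelin genes together with MYRF, stood at 42.9, 38.2, 35.1, 35.7 and 38.2 CPM in HC rats 9, 10, 11, 15 and 16. It stood at 41.1, 39.2, 28.2, 41.01 and 43.1 CPM in LC rats 2, 4, 12, 13 and 14. LC 12 was low and all other rats lay close together. For Sox10 the log2 fold change was -0.02 ± 0.11 (SE), with an adjusted p of 0.966 and an exact permutation p of 0.992. Myrf and Nkx6-2, both expressed as cells mature, had log2 fold changes of 0.06 ± 0.13 and -0.0014 ± 0.20 (SE).

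Olig2, which specifies the lineage and is carried by precursors and mature cells alike, stood at 27.1, 31.8, 25.1, 22.5 and 22.6 CPM in HC rats 9, 10, 11, 15 and 16. In LC rats 2, 4, 12, 13 and 14 it stood at 27.5, 25.2, 30.7, 27.2 and 27.3 CPM. The LC values fell inside the span of the HC values. The log2 fold change of Olig2 was -0.10 ± 0.10 (SE), with an adjusted p of 0.885 and an exact permutation p of 0.341. Olig1, its neighbour on chromosome 11, stood at 92.1, 98.7, 72.9, 76.7 and 78.4 CPM in HC rats 9, 10, 11, 15 and 16. In LC rats 2, 4, 12, 13 and 14 Olig1 stood at 29.7, 67.9, 92.8, 76.9 and 82.2 CPM. LC 2 lay far below every other rat, and the remaining LC rats overlapped with HC. For Olig1 the log2 fold change was 0.26 ± 0.24 (SE), with an adjusted p of 0.885, and it was 0.07 without LC 2.

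Pdgfra, the receptor for the growth factor that keeps precursors dividing, stood at 97.8, 81.4, 73.2, 86.7 and 112 CPM in HC rats 9, 10, 11, 15 and 16. It stood at 79.8, 101, 83.8, 84.1 and 93.9 CPM in LC rats 2, 4, 12, 13 and 14. The groups overlapped throughout. The log2 fold change of Pdgfra was 0.03 ± 0.12 (SE), with an adjusted p of 0.957 and an exact permutation p of 0.881.

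Cspg4 had the highest log2 fold change of the 29 members in this comparison (chromosome 8, 61532465 to 61567510, plus strand). It stood at 45.4, 35.7, 38.9, 43.04 and 29.8 CPM in HC rats 9, 10, 11, 15 and 16. In LC rats 2, 4, 12, 13 and 14 it stood at 17.2, 29.2, 34.5, 37.7 and 38.3 CPM. LC 2 was lowest, LC 4 was next, and the 3 LC Cue rats lay within the HC span. The log2 fold change of Cspg4 was 0.29 ± 0.19 (SE), with an adjusted p of 0.885 and an exact permutation p of 0.190, and it was 0.14 without LC 2. In LC 2 the precursor gene Cspg4 was below the range of the other 9 rats, while Pdgfra was within it.

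**Figure D2:**
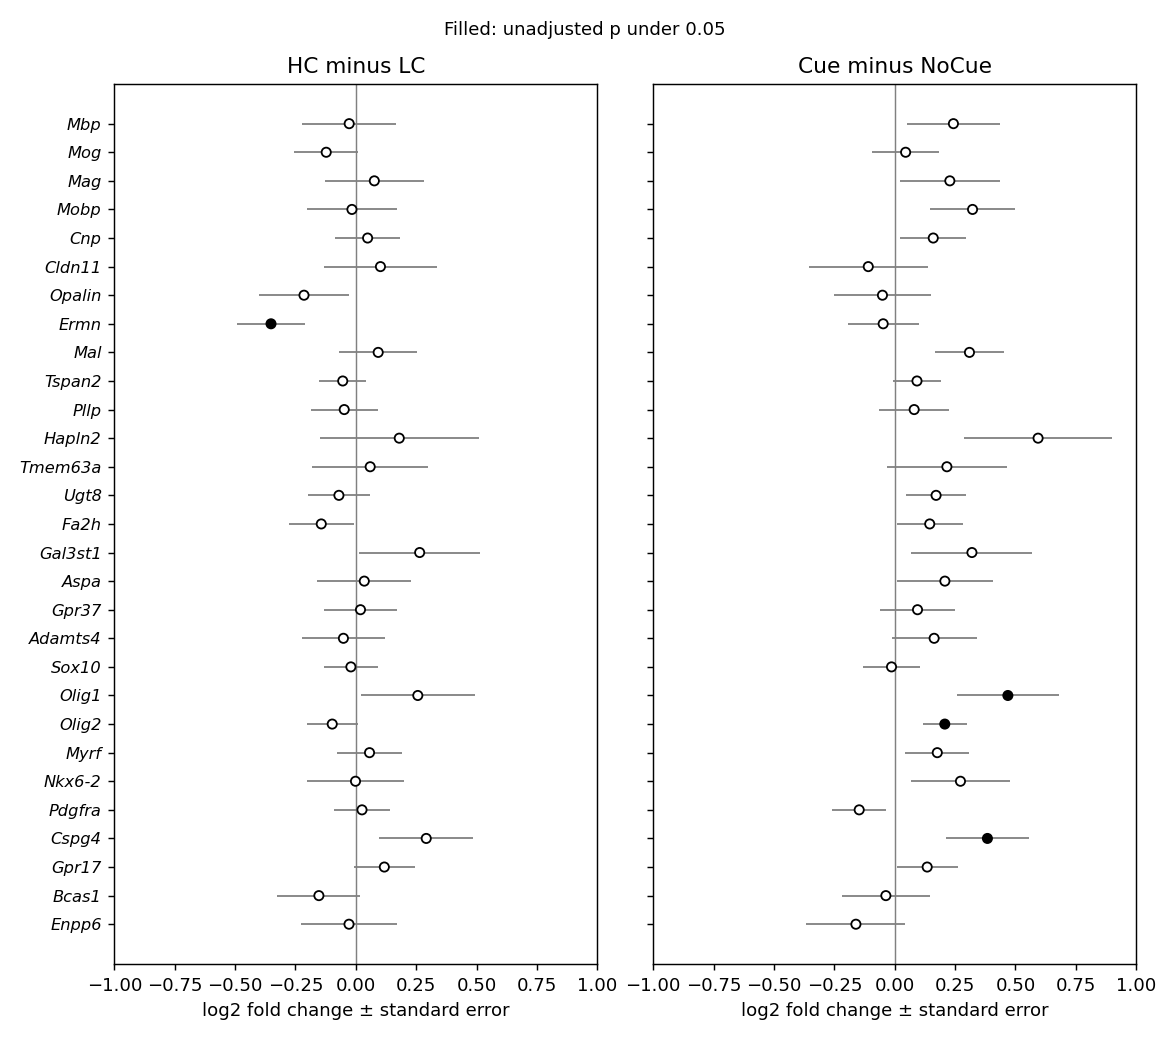
Log2 fold change with its standard error for the 29 genes, HC minus LC on the left and Cue minus NoCue on the right, with filled points for an unadjusted p under 0.05. The left points scatter around 0 with a median of -0.0014 and Ermn filled, and the right points lie mostly above 0 with a median of 0.16 and Olig1, Olig2 and Cspg4 filled.

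Leaving out single rats moved the count for HC against LC between 0 and 3 of 29. It was 3 without HC 9, all lower in HC (Mog, Opalin and Ermn), and 0 without HC 11, HC 15 or LC 13. The number of members with a log2 fold change above 0 moved more, from 14 of 29 with all rats. It was 4 without HC 9, 7 without LC 2 and 21 without HC 11 or HC 15. With library size alone as the scaling it was 23 of 29, but that scaling also put the median of all genes at 0.10. Within the 6 Cue rats 17 of 29 members had a log2 fold change above 0, with a median of 0.01. Within the 4 NoCue rats it was 14 of 29, with a median of -0.06.

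A few rats took the ends of the range in most members. HC 9 had the highest CPM of the 10 rats in 18 of 29 members, against 9.69% of all genes. These were 11 of the 13 sheath genes, 3 of the 4 enzymes, 1 of the receptor and protease pair, 2 of the 5 transcription factors, 1 of the 2 precursor genes and 0 of the 3 genes of differentiating cells. LC 2 had the lowest CPM in 14 of 29 members and the highest in 3, against 35.5% and 33.2% of all genes. HC 11 and HC 15 were each lowest in 6 members, against 5.94% and 7.22% of all genes. The 7 sheath genes lowest in LC 2 were Mbp, Mag, Cnp, Cldn11, Pllp, Hapln2 and Tmem63a.

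**Figure D3:**
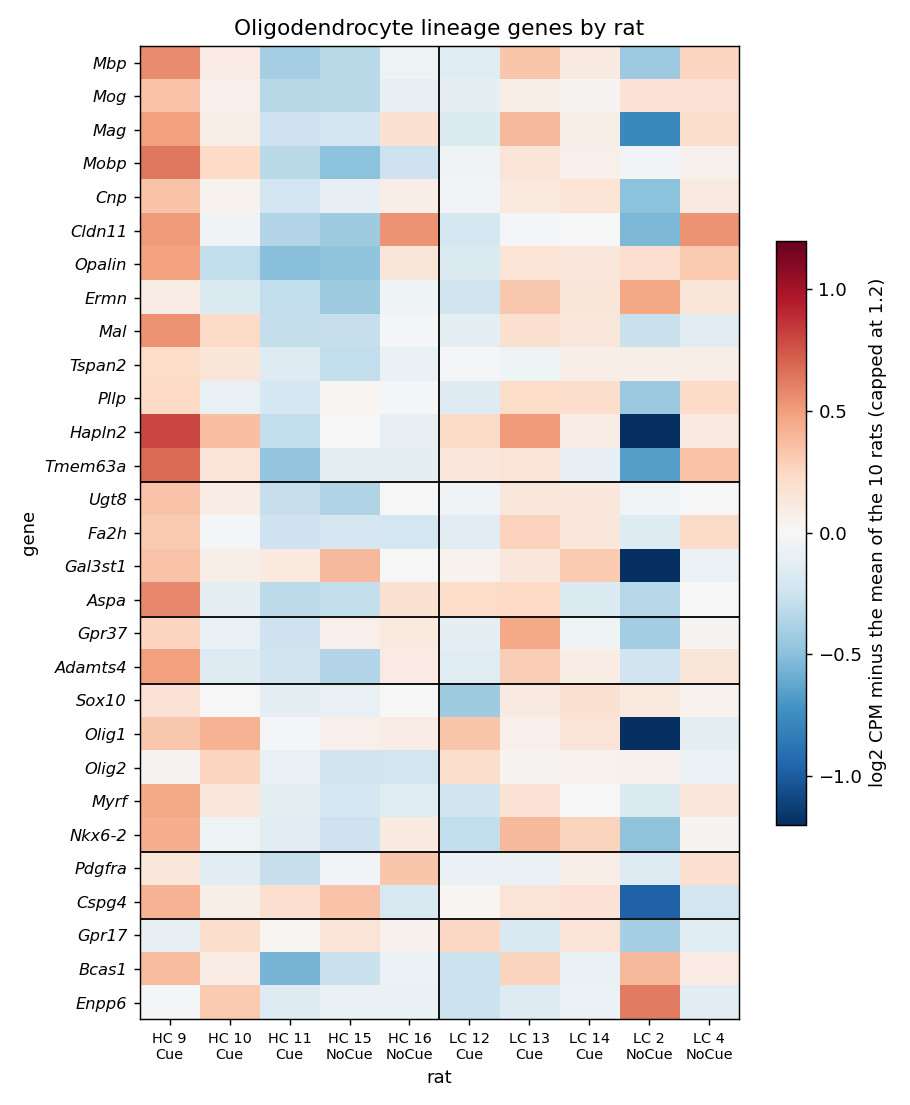
Log2 CPM of each gene in each rat minus the mean over the 10 rats (red above, blue below, colour capped at 1.2), with genes grouped by role and HC rats on the left. HC 9 is red in most sheath genes, HC 11 and HC 15 are blue in most, and LC 2 is dark blue for Hapln2, Gal3st1, Olig1 and Cspg4 but red for Ermn, Bcas1 and Enpp6.

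The members did not differ alike in LC 2. Against the mean of the other 9 rats on the log2 CPM scale, Hapln2 differed by -1.90 in LC 2, Gal3st1 by -1.49, Olig1 by -1.45 and Cspg4 by -1.08. In the same rat Enpp6 differed by 0.69, Ermn by 0.52 and Bcas1 by 0.44, all above the other 9 rats. Mobp, Ugt8, Tspan2, Olig2, Sox10, Fa2h, Pdgfra, Mog and Myrf differed from the mean of the others by at most 0.19 in either direction. The spread over 10 rats of Hapln2 was an SD of 0.68 in log2 CPM and became 0.33 without LC 2, and that of Gal3st1 went from 0.50 to 0.16. Over 9 rats the SD ran from 0.16 to 0.38 among the 29 genes.

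Reads in introns set LC 2 apart as well. Introns held 18.0% of the members' gene reads in LC 2 and 11.1% to 13.8% in the other rats. Over all genes but the mitochondrial ones, introns held 15.0% in LC 2, within the 13.8% to 17.2% of the others. For 24 members with intron reads in every rat and a mean of at least 50 gene reads, the highest and lowest intron shares were sought. LC 2 had the highest in 18 of them, against 33.9% of 12094 genes. It had the lowest in 3, and the share of all genes with LC 2 lowest was not counted.

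The intron share counts exon reads in its total, so fewer exon reads alone raise it. LC 2 had the highest share both in members that were low there and in others. Among the others were Tspan2 (31.0% against 15.2% to 22.5%) and Ermn (56.3% against 42.1% to 55.2%). It had the lowest share in Mog and Myrf, which were within the range of the others in CPM, and in Cnp, which was low. Bcas1, Pdgfra and Enpp6 lay within the range of the others in intron share. Olig1 is annotated with 1 exon and can hold no intron reads. How far the exon level sets these shares was not tested. Gal3st1, the sulfotransferase that makes sulfatide, had 67.4% of its reads in introns in LC 2 and 18.6% to 35.5% in the others. Hapln2, a link protein of the node matrix, had 40.0% against 15.4% to 21.8%. Tmem63a, a mechanically gated channel, had 47.5% against 13.5% to 24.4%. Cspg4 had 10.9% against 2.31% to 5.94%. The part of the mitochondrial share or of RNA quality in these values was not tested.

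**Figure D4:**
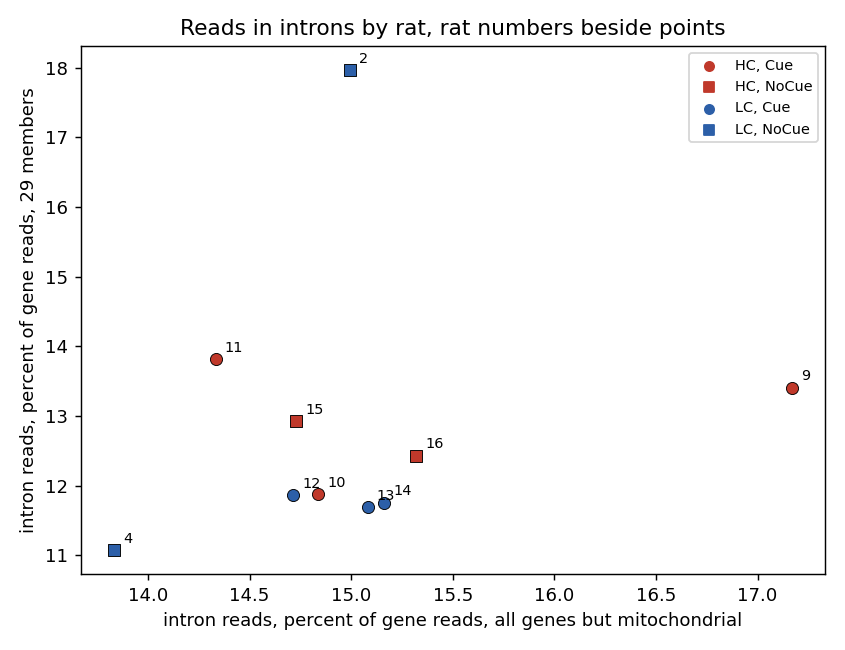
Share of gene reads in introns for the 29 members (vertical, percent) against the share over all genes but the mitochondrial ones (horizontal, percent), 1 point per rat with its number. LC 2 is at 18.0% on the vertical axis while the other 9 rats lie between 11.1% and 13.8%, and on the horizontal axis it lies among them.

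Mature genes were set against precursor genes in each rat as a score, here called the balance. This score was the mean log2(TPM + 0.1) of the 19 mature genes minus that of Pdgfra and Cspg4, a description with no test. Whether it follows the numbers of mature and precursor cells was not tested. The balance was 0.78, 0.68, 0.38, 0.25 and 0.56 in HC rats 9, 10, 11, 15 and 16. It was 0.81, 0.78, 0.59, 0.80 and 0.58 in LC rats 2, 4, 12, 13 and 14. HC 11 and HC 15 were low and the other HC rats lay near or among the LC rats, so the groups overlapped. The mean was 0.53 ± 0.22 in HC and 0.71 ± 0.12 in LC (SD, n = 5 each), a difference of -0.18 against a pooled SD of 0.17.

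On TPM as deposited LC 2 was low in both classes, and its balance was the highest of all. Its mature genes averaged 3.52 and its precursor genes 2.71 on this scale, both below all other rats, where the mature genes ran from 4.47 to 5.16 and the precursor genes from 3.93 to 4.38. These TPM count the mitochondrial reads in their total. With those genes left out of the total, the mature genes averaged 4.56 in LC 2 against 4.75 to 5.47 in the others. The precursor genes then averaged 3.75 against 4.31 to 4.69, but the 2 genes differed. Cspg4 was at 5.57 TPM in LC 2, below the 9.81 to 15.7 TPM of the others. Pdgfra was at 31.96 TPM in LC 2, within their 31.3 to 46.5 TPM. The low precursor mean of LC 2, and with it the top place of its balance, thus turned on Cspg4. The balance of LC 2 stayed at 0.81, which was fixed in advance. Leaving those genes out scales all other genes of a rat alike, so apart from the added 0.1 no balance could change. Without LC 2 the mean balance in LC was 0.69 ± 0.12 (SD, n = 4). By cue mark the balance was 0.63 ± 0.15 in 6 Cue rats and 0.60 ± 0.26 in 4 NoCue rats (SD). Mature minus differentiating genes was -0.12 in LC 2 and 0.28 to 0.80 in the others.

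**Figure D5:**
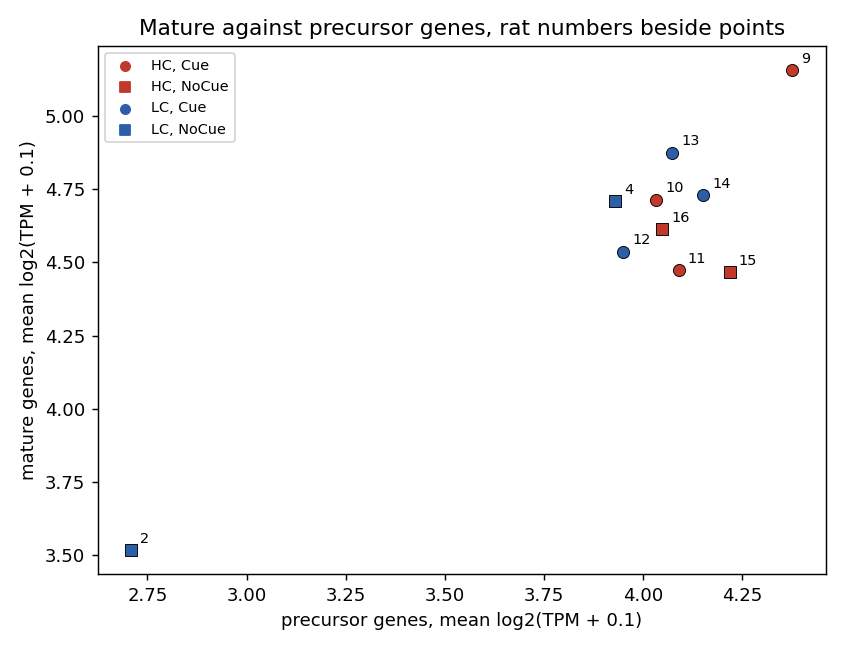
Mean log2(TPM + 0.1) of the 19 mature genes (vertical) against that of the 2 precursor genes (horizontal), 1 point per rat with its number; red is HC, blue is LC, circles are Cue and squares NoCue. On these TPM, whose total includes mitochondrial reads, LC 2 lies low on both axes at 3.52 and 2.71, HC 9 is highest on both at 5.16 and 4.38, and red and blue points mix between them.

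By cue mark, most members had a higher mean in Cue rats, and again none passed after adjustment. In a fit with phenotype and mark together, 22 of 29 had a log2 fold change above 0 for Cue over NoCue, against 48.9% of all genes tested, and the median was 0.16 against -0.0059. Among the 19 mature genes 16 were above 0. At an adjusted p under 0.05 there were 0 of 29, against 0% of all genes, and 0 of 29 by DESeq2 and limma-voom too. At an unadjusted p under 0.05 there were 3 of 29, against 9.97% of all genes. All 3 were higher in Cue rats, against 4.36% of all genes in that direction. None of the 29 had Cue and NoCue rats that did not overlap, against 2.07% of all genes. The 4 NoCue rats include LC 2, and without it the median was 0.10, with 24 of 29 above 0. Without HC 9, a Cue rat, the median was lower still at 0.06, with 21 of 29 above 0.

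The 3 genes were Olig2, Olig1 and Cspg4. Olig2 averaged 28.2 ± 2.54 CPM in 6 Cue rats and 24.4 ± 2.42 CPM in 4 NoCue rats (SD), with a log2 fold change of 0.21 ± 0.09 (SE), an unadjusted p of 0.045 and an adjusted p of 0.494. Olig1 averaged 85.9 ± 10.1 CPM in Cue and 63.1 ± 22.8 CPM in NoCue rats, and its log2 fold change was 0.47 ± 0.21 (SE) with p values of 0.049 and 0.494. Cspg4 averaged 38.4 ± 3.80 CPM in Cue and 29.8 ± 10.5 CPM in NoCue rats, and its log2 fold change was 0.38 ± 0.17 (SE) with p values of 0.049 and 0.494. Of the Cue rats, HC 10 and LC 12 were the highest in Olig2 and HC 11 the lowest, below LC 4 and LC 2 of the NoCue rats. For Olig1 and Cspg4 the NoCue mean holds the low values of LC 2 given above. Without LC 2 their log2 fold changes by mark were 0.23 and 0.21, and that of Olig2 was 0.26.

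Which members passed changed with the rats left out. The count was 0 without HC 9, 5 without HC 11 (Mobp, Mal, Hapln2, Olig1 and Olig2), 2 without LC 2 (Olig1 and Olig2) and 2 without LC 4 (Hapln2 and Olig1). It was 1 without HC 10, HC 15, HC 16, LC 12, LC 13 or LC 14. Without LC 2 and 4 together it was 3 (Mobp, Tspan2 and Olig2). Over 22 alternatives the log2 fold change of Olig2 ran from 0.15 to 0.32, that of Olig1 from 0.18 to 0.62 and that of Cspg4 from 0.12 to 0.57.

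Hapln2 had the highest log2 fold change of the 29 by mark (chromosome 2, 187396349 to 187401786, minus strand), and it is the gene whose window above holds both SOX-type motifs. It stood at 17.02, 12.5, 7.86, 11.4, 13.9 and 10.3 CPM in Cue rats HC 9, HC 10, HC 11, LC 12, LC 13 and LC 14. In NoCue rats HC 15, HC 16, LC 2 and LC 4 it stood at 9.68, 9.06, 2.89 and 10.4 CPM. LC 2 was far below the rest, and HC 11 was below the other NoCue rats. Its log2 fold change was 0.59 ± 0.31 (SE), with an unadjusted p of 0.081 and an adjusted p of 0.494. It was 0.32 without LC 2 and at most 0.87 with another rat left out. For HC against LC the log2 fold change of Hapln2 was 0.18 ± 0.33 (SE), and -0.04 without LC 2.

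Enpp6, a choline phosphodiesterase of newly forming oligodendrocytes, was at the other end. It stood at 2.92, 3.71, 2.65, 2.46, 2.65 and 2.81 CPM in Cue rats HC 9, HC 10, HC 11, LC 12, LC 13 and LC 14. In NoCue rats HC 15, HC 16, LC 2 and LC 4 it stood at 2.80, 2.79, 4.62 and 2.71 CPM. LC 2 was the highest of all and HC 10 the next. Its log2 fold change was -0.16 ± 0.20 (SE), with an adjusted p of 0.715. Opalin, Ermn, Cldn11, Bcas1, Sox10 and Pdgfra were the other members with a log2 fold change below 0 by mark, from -0.15 to -0.01.

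Of the members that missed the threshold, Mal came closest with an unadjusted p of 0.057 and a log2 fold change of 0.31 ± 0.14 (SE), followed by Hapln2 at 0.081 and by Mobp at 0.093 with 0.32 ± 0.17 (SE). Mal, a raft protein that sorts cargo to myelin, stood at 79.4, 63.9 and 44.6 CPM in HC Cue rats 9, 10 and 11 and at 50.3, 62.4 and 59.9 CPM in LC Cue rats 12, 13 and 14. In NoCue rats HC 15, HC 16, LC 2 and LC 4 it stood at 44.9, 53.7, 45.4 and 50.01 CPM. HC 11 lay below every NoCue rat, and the other 5 Cue rats lay above 3 of the 4. All 4 enzymes of the list were above 0 by mark, with log2 fold changes from 0.15 to 0.32. The highest was that of Gal3st1, where LC 2 of the NoCue rats stood at 1.44 CPM. It fell as low as 0.07 with 1 rat left out and -0.04 over the other settings.

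Whether HC against LC differed between Cue and NoCue rats was tested as an interaction, HC minus LC in Cue rats less that in NoCue rats. None of the 29 members passed an unadjusted p of 0.05, against 13.3% of all genes. At an adjusted p under 0.05 the count was 0 of 29 against 0% of all genes, and 0 of 29 by DESeq2 and limma-voom. The highest value was that of Enpp6, 0.59 ± 0.38 (SE), and the lowest that of Gal3st1, -0.77 ± 0.46 (SE), with adjusted p values of 0.450 and 0.422.

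Gal3st1 stood at 4.90, 4.04, 4.17, 5.06 and 3.83 CPM in HC rats 9, 10, 11, 15 and 16. It stood at 1.44, 3.66, 3.94, 4.24 and 4.80 CPM in LC rats 2, 4, 12, 13 and 14. LC 2 alone was outside the range of 3.66 to 5.06 CPM that the other 9 rats shared. This interaction rests on the LC NoCue cell: without LC 4, which leaves LC 2 alone there, 4 of 29 members had an adjusted p under 0.05 (Hapln2, Gal3st1, Olig1 and Cspg4), beside 4977 of 14285 genes. Without HC 11 it gave 4 members at an unadjusted p under 0.05, without HC 16 or LC 13 it gave 1, and without LC 2 it gave 0.

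Other genes of the pathway were read from lists outside the 29. By mark, their counts stand beside 9.97% of all genes at an unadjusted p under 0.05, with 4.36% higher in Cue rats. After adjustment 0 of all genes passed by edgeR and limma-voom and 40 by DESeq2. Of 29 other genes of mature oligodendrocytes, 0 passed an unadjusted p of 0.05 for HC against LC, with a median log2 fold change of 0.03. By mark, 3 of these 29 passed, a share close to that of all genes, all 3 were higher in Cue rats, 22 were above 0 and the median was 0.13. Their summed level was 1301 to 1707 TPM in 9 rats and 656 TPM in LC 2. With mitochondrial genes left out of the total it was 1637 to 2119 TPM in the 9 rats and 1368 TPM in LC 2. Of 14 other precursor genes, 0 passed for HC against LC and 1 by mark, higher in Cue rats, with 7 above 0. These 14 summed to 154 TPM in LC 2 and 215 to 276 TPM in the other rats. With mitochondrial genes left out of the total they summed to 322 TPM in LC 2, within the 289 to 343 TPM of the others. Of 15 genes of cholesterol synthesis, which feeds the sheath, 0 passed for HC against LC and 3 by mark, all higher in Cue rats, with 9 above 0. Of 9 genes of axonal partners of myelin and of the node, 0 passed for HC against LC and 1 by mark, with 3 above 0.

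Marker lists of other cell types gave both directions by mark, and their part in the members' values was not tested. Of 9 astrocyte genes, 3 passed an unadjusted p of 0.05, lower in Cue rats, while 6 were above 0 and the median was 0.02. Of 7 microglial genes, 1 passed, lower in Cue rats, while 5 were above 0 and the median was 0.01. Of 10 genes of striatal projection neurons, 4 passed and all 10 were below 0, with a median of -0.49. These genes summed to 704 TPM in LC 4, a NoCue rat, and to 228 to 327 TPM in the other rats. Of 7 genes of cortical excitatory neurons 2 passed and 4 were below 0, and of 6 endothelial genes 1 passed and 5 were below 0, those that passed being lower in Cue rats. For HC against LC, 2 of 10 striatal genes passed, lower in HC, and 0 of the genes of the other cell types. How far the striatal counts rest on LC 4 was not tested.

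The summed striatal level as deposited was 269 to 327 TPM in HC, 228 TPM in LC 2, 704 TPM in LC 4 and 288 to 319.5 TPM in the other LC rats. With mitochondrial genes left out of the total, LC 2 was no longer the lowest. It then stood at 476 TPM, against 352 to 396 TPM in HC, 948 TPM in LC 4 and 370.3 to 409.6 TPM in the other LC rats.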

How the data were processed

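The authors mapped trimmed single-end reads of 50 bases to the rat genome Rnor_6.0 in the CLC Genomics Workbench and deposited, for each rat, counts of reads in exons, introns and whole genes and TPM values. Their table of HC against LC (fold changes and p-values) was not used. The members and lists were chosen with earlier results of these data known. Phenotype came from the sample labels and the cue mark from the names of the tables.

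Exon counts were filtered with filterByExpr, scaled by TMM and tested with edgeR (version 4.0.16, R version 4.3.3) by its quasi-likelihood method. The p-values were adjusted after Benjamini and Hochberg over the 14135 genes. Each standard error is the log2 fold change over the square root of F. For HC against LC, each member also had an exact permutation test on log2 CPM with a prior count of 2. The fits were tested on simulated counts. Alternatives were other scalings and filters, DESeq2 1.42.0, limma-voom (limma 3.58.1), gene or unique reads, mitochondrial genes removed, and rats left out. Full values are given for Mbp, Mog, Sox10, Olig2, Pdgfra, Cspg4, any member whose unadjusted p was under 0.05, and the extremes of each comparison. Mal was named after its values were seen. The labels give each rat as a separate sample, and no pair of libraries agreed within sampling noise (chi-square per gene at least 4.91 over 45 pairs). Of the listed symbols, 8 had no match in the tables.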

Additional observations from a re-analysis of the deposited data

Results flagged for a closer look

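In each phenotype of 5 rats, the gap between the highest or lowest rat and its neighbour was set against the range of the group, for log2 CPM of the 29 genes and for the mature minus precursor balance. Of 60 such groups, 6 held a lone value, and 4 of the 6 lay in LC 2. Chance gives about 1 in 20 for independent groups, but these groups share the same rats. Over all genes tested, LC 2 was above the other 9 rats in 33.2% and below them in 35.5%. The share of lone values by this rule was not counted over all genes. Whether lone values in LC 2 were commoner among the members than elsewhere was not tested.

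Hapln2 stood at 1.59 log2 CPM in LC 2, against 3.38 to 3.80 in the other LC rats. Gal3st1 stood at 0.64 in LC 2, against 1.92 to 2.30. Olig1 stood at 4.90 in LC 2, against 6.09 to 6.54. Enpp6 went the other way and stood at 2.24 in LC 2, against 1.37 to 1.55. Sox10 was low in LC 12 at 4.82, against 5.30 to 5.43 in the other LC rats. Among HC rats Enpp6 was high in HC 10 at 1.93, against 1.47 to 1.60. No difference between Cue and NoCue rats in the effect of phenotype passed an adjusted p of 0.05 for any of the 29 genes.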

How the results depend on the processing

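No member had an adjusted p under 0.05 under any alternative for HC against LC or by cue mark. With 1 rat left out, the members at an unadjusted p under 0.05 numbered 0 to 3 for HC against LC, 0 to 5 by mark and 0 to 5 for the interaction, and those at an adjusted p numbered 0 to 4 for the interaction, where the median log2 value ran from -0.21 to 0.27. The count for HC against LC was 0 with library size alone, within Cue rats, within NoCue rats and without LC 2 and 4 together. By mark it was 1 with upper quartile scaling. For the interaction it was 1 with gene reads and 2 with unique reads. Library size alone put the median of all genes at 0.10 for HC against LC, 0.10 by mark and -0.17 for the interaction. The mature minus precursor difference ran from -0.24 to -0.07 over 16 alternatives and stayed below 0. The median over members by mark stayed above 0, from 0.06 to 0.26. Without LC 4, LC 2 alone stands for LC NoCue rats and is taken to vary like the others. Gpr17 has no unique reads, so that alternative gave 28 members. No paired analysis was possible because the phenotypes share no rat numbers. Members with few reads, such as Enpp6 and Nkx6-2 at means of 51.2 and 72.8 exon reads, carry the most counting error.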
